A study of Homo sapiens with 9 samples.

Results

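Cells show fragments of their own proteins to CD8 T cells on major histocompatibility complex (MHC) class I molecules. The 9 genes described here encode this display system: the heavy chains HLA-B, HLA-C, HLA-E and HLA-F, the light chain B2M, the peptide loading factors TAP1, TAP2 and TAPBP, and the transactivator NLRC5. They are a list of gene names with no threshold on their values, drawn up with earlier results of these data known. The list holds 9 of the 58735 genes counted, and all 9 are listed in the comparison tables of both short hairpin RNAs. None of these 9 genes differed from control at an adjusted p under 0.05 with either hairpin, and HLA-F came nearest.

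RNA was sequenced from THP-1, an established human acute myeloid leukaemia line of monocytic type, after knockdown of the transcription factor NFATC2. The groups were cells with the NFATC2 hairpin shRNA-143, cells with the NFATC2 hairpin shRNA-146 and cells with a non-targeting control hairpin, with 3 libraries in each. In all 3 groups the cells were spinoculated with lentivirus packaged in 293T cells, kept in puromycin from 24 hours, and harvested at 48 hours, and polyadenylated RNA was sequenced. The design therefore asks which transcripts move when NFATC2 is lowered in this line.

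A class I molecule consists of a heavy chain, the light chain beta-2-microglobulin and a peptide. TAP1 and TAP2 form the pump that carries peptides from the cytosol into the endoplasmic reticulum, and tapasin, the product of TAPBP, holds empty class I molecules at that pump until a peptide fits. NLRC5 switches class I genes on through factors bound at an upstream stretch of their promoters, which also carry interferon-response and NF-kB elements. Interferon gamma is the best known inducer of the whole set. NFAT proteins are calcium-regulated factors that bind a short core with the letters GGAAA.

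Those promoter elements can be read in the sequences of the genes whose levels are compared most closely here. The windows below run from 190 to 41 bases before the RefSeq start of each gene, 5′ to 3′ on the gene's own strand, in GRCh38.p14, and are shown so that the 3 heavy chains with unlike values can be set beside each other and beside the light chain. Capitals mark matches on either strand to the interferon-stimulated response element (GAAA, any 2 bases, GAAA), to its class I form (GAA, any 2 bases, GAAAC), to GGGNNTTCC, to TGACGC or to CCAAT. The 3 capitals at the 5′ end of the HLA-C window are the end of a CCAAT match that begins outside it.

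HLA-B: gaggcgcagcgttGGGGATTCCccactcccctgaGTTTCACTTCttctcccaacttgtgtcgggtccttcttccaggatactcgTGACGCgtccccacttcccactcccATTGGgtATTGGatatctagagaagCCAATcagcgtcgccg
HLA-C: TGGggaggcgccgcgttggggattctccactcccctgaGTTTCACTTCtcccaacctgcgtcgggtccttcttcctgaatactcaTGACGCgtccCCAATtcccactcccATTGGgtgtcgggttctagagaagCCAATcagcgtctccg
HLA-F: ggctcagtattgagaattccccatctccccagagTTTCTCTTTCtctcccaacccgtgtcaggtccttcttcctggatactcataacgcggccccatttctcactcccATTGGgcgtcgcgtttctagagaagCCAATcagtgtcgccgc
B2M: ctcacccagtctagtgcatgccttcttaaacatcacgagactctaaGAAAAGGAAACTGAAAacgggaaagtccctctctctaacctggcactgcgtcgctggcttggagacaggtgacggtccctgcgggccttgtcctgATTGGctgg

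The upstream stretch of HLA-B lies at chr6:31357220-31357369 on the minus strand, that of HLA-C at chr6:31272133-31272282 on the minus strand, that of HLA-F at chr6:29723244-29723393 on the plus strand and that of B2M at chr15:44711327-44711476 on the plus strand. RefSeq promoters, 250 bases before the start to 50 after it, were matched for 7 of the 9 genes; HLA-E and NLRC5 are named only. The interferon-stimulated response element was found on either strand in 5 of the 7 (HLA-F, B2M, TAP1, TAP2 and TAPBP), against 3.65% of 27305 promoters, and in TAP1, TAPBP and B2M a pair of matches overlapped each other. HLA-B and HLA-C lacked those letters but held the class I form, which was searched only after the windows had been read and is in 1.51% of all promoters. The NF-kB-like GGGNNTTCC was found in HLA-B, TAPBP and B2M (6.60% of all promoters), TGACGC in HLA-B, HLA-C and TAP2 (9.20%), and CCAAT in HLA-B, HLA-C, HLA-F, TAP1 and B2M (35.7%). The NFAT-like core TTTCCA, which is TGGAAA on the other strand, was found in TAP1 and TAPBP and in 21.1% of all promoters. This is narrower than the core GGAAA named above, which was not searched on its own and can be read in the B2M window. TAPBP's TTTCCA overlaps its GGGNNTTCC match. Neither TGACGT (8.32% of all promoters) nor the E-box CACGTG (7.43%) was found in any of the 7. These are matches of letters in a window and no measure of binding.

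Library totals ran from 40047459 to 44669709 counts, and all 9 genes passed the filter on low counts that left 14975 genes. NFATC2 averaged 5.28 ± 3.29 CPM (counts scaled by library size and a TMM factor) with shRNA-143 and 6.24 ± 3.44 CPM with shRNA-146, against 22.5 ± 8.56 CPM in control (SD, n = 3 each). With the replicate number as a block, NFATC2 fell by 2.27 ± 0.24 on the log2 scale with shRNA-143 (adjusted p = 0.00168) and fell by 1.96 ± 0.23 with shRNA-146 (adjusted p = 0.00435, edgeR's quasi-likelihood test, SE after ±). Without the block the adjusted p-values were 0.497 and 0.464, so that the fit without the block can miss a change of this size. Of 10 monocytic markers, 9 were above 1 CPM, with sums of 994 to 1144 CPM with shRNA-143, 1068 to 1264 CPM with shRNA-146 and 845 to 1047 CPM in control. CD3D, CD3E, CD3G, CD2, MS4A1, HBB and PAX2 had no count in any library, and NKG7 averaged 13.2, 13.0 and 20.3 CPM in the shRNA-143, shRNA-146 and control libraries. The 6 markers of epithelial cells and of the packaging line summed to 3.39 to 4.18 CPM with shRNA-143, 2.20 to 3.35 CPM with shRNA-146 and 4.11 to 4.52 CPM in control.

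Set in order by level per gene length, the light chain came first and HLA-F last. In RPKM (scaled counts divided by gene length), where the length is the union of all annotated exons, control libraries averaged 358 RPKM for B2M, 197 for HLA-B, 61.6 for HLA-C, 58.9 for HLA-E, 47.5 for TAPBP, 12.7 for TAP1, 7.08 for TAP2, 1.46 for NLRC5 and 0.572 for HLA-F. B2M was above HLA-B, and HLA-B above HLA-C, in 9 of 9 libraries. HLA-C, HLA-E and TAPBP could not be ordered beyond their spread: HLA-C exceeded HLA-E in 2 of 9 libraries, and the control ranges of HLA-C and HLA-E overlapped, as did those of HLA-E and TAPBP. TAPBP was above TAP1, TAP1 above TAP2, TAP2 above NLRC5 and NLRC5 above HLA-F in 9 of 9 libraries. The deposited length of B2M is 6079 bases and joins all its annotated exons, which is longer than its coding transcript, so that its level per length is a low estimate.

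**Figure D1:**
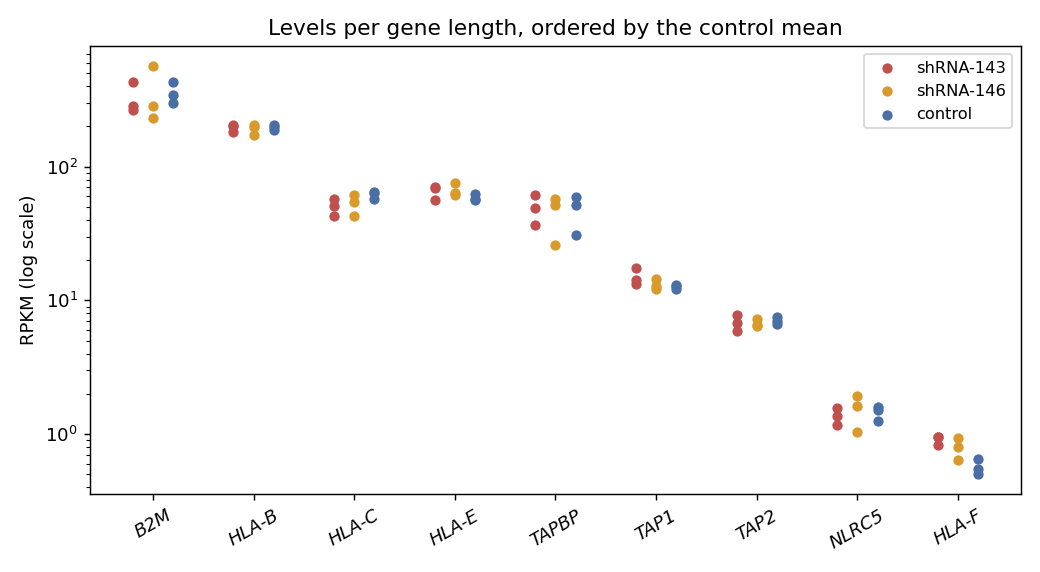
Level per gene length (RPKM, log scale, vertical axis) of the 9 genes, ordered by the control mean from left to right, with a point for each library, shRNA-143 and shRNA-146 left of control. The 3 colours of most genes lie on each other, B2M and HLA-B stand above the rest, and HLA-F is the gene whose control points lie lowest.

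Together the 9 genes took between 0.3002% and 0.416% of a library's counts, and B2M alone gave 53.4% to 74.2% of that share. The highest value of both belonged to shRNA-146 replicate 1.

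HLA-F is a non-classical heavy chain that binds receptors of natural killer cells, and it was the member with the largest difference from control. It had 4.13, 4.12 and 3.58 CPM in the shRNA-143 libraries and 2.79, 4.08 and 3.51 CPM in the shRNA-146 libraries, against 2.40, 2.85 and 2.20 CPM in the control libraries. Every shRNA-143 library was above every control library, while shRNA-146 replicate 1 lay just under control replicate 2. The counts behind these values were few, 110 to 199 in shRNA libraries and 81 to 120 in control libraries.

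The fitted log2 difference of HLA-F was 0.67 ± 0.24 with shRNA-143 (1.59-fold, 95% interval 1.10 to 2.29, adjusted p = 0.602) and 0.48 ± 0.24 with shRNA-146 (1.39-fold, interval 0.97 to 2.01, adjusted p = 0.603; edgeR's quasi-likelihood test, SE after ±). With the replicate number as a block the estimates stayed at 0.67 ± 0.20 and 0.48 ± 0.20 and the adjusted p-values were 0.102 and 0.189. For the mean of both hairpins they were 0.57 ± 0.21 (adjusted p = 0.448) without the block and 0.58 ± 0.18 (adjusted p = 0.0812) with it. HLA-F passed only when the block was used and shRNA-146 replicate 1 was left out, at 0.67 with shRNA-143 (adjusted p = 0.0251) and 0.64 for the mean (adjusted p = 0.0175), where 13.7% and 20.1% of all tested genes passed. With the block, leaving out any other library gave an adjusted p between 0.0727 and 0.346 with shRNA-143.

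Within a replicate number, HLA-F in shRNA-143 cells stood at 172%, 145% and 163% of control, and in shRNA-146 cells at 116%, 143.2% and 159%. It was the only one of the 9 genes above the control of its own number in all 6 shRNA libraries, a pattern met by 12.4% of all tested genes. In bulk RNA of this kind, more cells with a transcript and more transcript per cell cannot be told apart. Antisense genes cover 28.5% of the exon bases of HLA-F. They had few counts of their own, 3 to 11 per library for HLA-F-AS1 and 0 for AL645939.1 and RPL23AP1. The sources used here do not say whether counting used strand or how reads in an overlap were assigned.

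**Figure D2:**
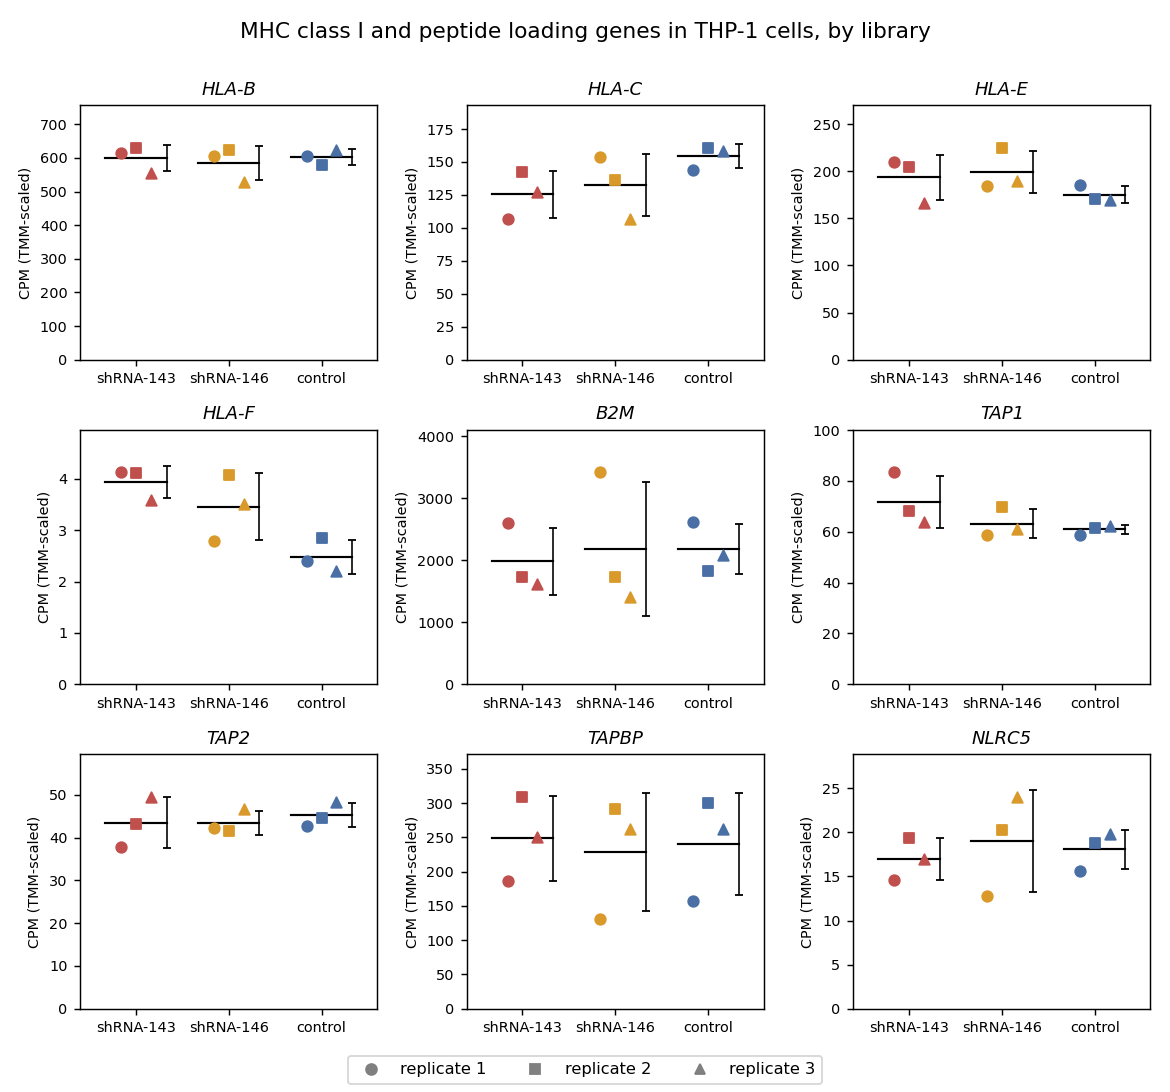
TMM-scaled CPM (vertical axis, from 0) of each of the 9 genes by group, with a marker shape for each replicate number, the group mean as a line and its SD as a bar. In the HLA-F panel the shRNA-143 points, 3.58 to 4.13 CPM, all lie above the control points, 2.20 to 2.85 CPM, and in the B2M, TAPBP and NLRC5 panels the circles of replicate 1 stand apart from the other shapes in every group.

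HLA-C, a classical heavy chain and a ligand of killer-cell immunoglobulin-like receptors, lay on the other side of control. It had 107, 142.6 and 127 CPM in the shRNA-143 libraries and 153, 137 and 107 CPM in the shRNA-146 libraries, against 144, 161 and 158 CPM in the control libraries. All shRNA-143 libraries were below all control libraries, by a small margin at replicate 2, whereas shRNA-146 replicate 1 lay inside the control range. The log2 difference was -0.30 ± 0.19 with shRNA-143 (adjusted p = 0.869) and -0.22 ± 0.19 with shRNA-146 (adjusted p = 0.810), and with the block -0.30 ± 0.16 (adjusted p = 0.304) and -0.23 ± 0.16 (adjusted p = 0.418; edgeR). It passed only with the block and without shRNA-146 replicate 1, at -0.43 with shRNA-146 (adjusted p = 0.0465) and -0.37 for the mean of both hairpins (adjusted p = 0.0229), where 11.4% and 20.1% of all tested genes passed. The size of the difference was not stable. With the block and a correction for gene length it was -0.16 with shRNA-143 (adjusted p = 0.658) and -0.072 with shRNA-146 (adjusted p = 0.854), and with the block and scaling by library size alone -0.20 and -0.095. Leaving out shRNA-143 replicate 1 with the block gave -0.17 with shRNA-143, and leaving out shRNA-146 replicate 3 gave -0.068 with shRNA-146. HLA-C and HLA-B share 35 exon bases on the same strand, and the sources used here do not say how reads common to similar heavy chain genes, or from the line's own alleles, were assigned.

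HLA-B, the most abundant of the heavy chains measured here, had 615, 630 and 555 CPM with shRNA-143 and 605, 624 and 528 CPM with shRNA-146, against 605, 578 and 625 CPM in control. The 3 groups overlapped throughout. Its log2 difference was -0.01 ± 0.16 with shRNA-143 and -0.04 ± 0.16 with shRNA-146, and the 95% intervals of the fold ran from 0.77 to 1.29 and from 0.75 to 1.25, so that a larger change in either direction lies outside them. HLA-B also varied least over the 9 libraries, with an SD of 0.09 in log2 CPM against a median of 0.42 over all tested genes.

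HLA-E, which presents leader peptides of other class I chains to the CD94 and NKG2 receptors, had 210, 205 and 166 CPM with shRNA-143 and 184, 225 and 189 CPM with shRNA-146, against 185, 171 and 169 CPM in control. In each shRNA group 2 of 3 libraries were above the control of their number. The differences of 0.14 ± 0.17 and 0.19 ± 0.17 (log2) were within the spread between libraries, at adjusted p-values of 0.937 and 0.819 in edgeR's quasi-likelihood test.

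B2M, the light chain of every class I molecule, followed the replicate number and not the hairpin. It had 2602, 1733 and 1620 CPM with shRNA-143 and 3421, 1730 and 1404 CPM with shRNA-146, against 2626, 1829 and 2082 CPM in control. The libraries numbered 1 were the highest in all 3 groups. The log2 difference was -0.13 ± 0.35 with shRNA-143 and 0.0039 ± 0.35 with shRNA-146, and the intervals of the fold were 0.53 to 1.57 and 0.58 to 1.73. With the block these narrowed to 0.69 to 1.16 and 0.72 to 1.23.

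TAP1 had 83.4, 68.1 and 63.7 CPM with shRNA-143 and 58.8, 69.6 and 61.3 CPM with shRNA-146, against 58.9, 61.6 and 62.2 CPM in control. The shRNA-143 libraries were all above control, 2 of them by little, and the shRNA-146 libraries lay on both sides. The log2 difference of TAP1 was 0.24 ± 0.17 with shRNA-143 (adjusted p = 0.901) and 0.05 ± 0.17 with shRNA-146 (adjusted p = 0.956; edgeR). TAP1 shares 9.49% of its exon bases with the antisense PSMB8-AS1, which had 343 to 425 counts with shRNA-143, 280 to 352 with shRNA-146 and 424 to 442 in control. With the block, the log2 difference of PSMB8-AS1 was -0.68 ± 0.17 with shRNA-146 (adjusted p = 0.0478; edgeR), where 4.42% of all tested genes passed. It did not pass with shRNA-143 (adjusted p = 0.221) or for the mean (0.0538), nor with shRNA-146 without the block (0.497). Its part in the values of TAP1 was not tested.

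TAP2, the partner of TAP1 in the pump, had 37.8, 43.2 and 49.6 CPM with shRNA-143 and 42.2, 41.5 and 46.7 CPM with shRNA-146, against 42.8, 44.7 and 48.3 CPM in control. Its differences were -0.06 ± 0.17 with both hairpins, and the highest library of each group was replicate 3. AL669918.1 covers 32.3% of the exon bases of TAP2 on the same strand and had no counts. How reads in such an overlap were assigned is not given, so this does not show how far TAP2 was affected.

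TAPBP had 186, 309 and 250 CPM with shRNA-143 and 131, 292 and 263 CPM with shRNA-146, against 156, 301 and 263 CPM in control. In every group replicate 1 was the lowest and replicate 2 the highest. The log2 differences, 0.05 ± 0.35 and -0.07 ± 0.35, became 0.08 ± 0.14 and -0.09 ± 0.14 with the block.

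NLRC5, the class I transactivator, had 14.6, 19.3 and 17.0 CPM with shRNA-143 and 12.8, 20.3 and 24.0 CPM with shRNA-146, against 15.6, 18.7 and 19.8 CPM in control. The groups overlapped, with replicate 1 the lowest of each. Its log2 difference was -0.09 ± 0.25 with shRNA-143 (adjusted p = 0.958) and 0.07 ± 0.25 with shRNA-146 (adjusted p = 0.960; edgeR).

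Over the 9 genes, 0 passed in any of the 4 comparisons, the fourth being shRNA-146 against shRNA-143. The shares of all tested genes called were likewise small without the block, at 0.0467% with shRNA-143, 0.0334% with shRNA-146, 0.0334% for the mean of both and 0.0467% between the hairpins. With the block they were 3.17%, 4.42%, 5.74% and 1.2% in the same order, and the count among the 9 was again 0. At an unadjusted p under 0.05 HLA-F alone was counted, with shRNA-143 and for the mean without the block and with either hairpin and for the mean with it, against 6.80% to 9.34% of all tested genes in the comparisons with control without the block and 20.7% to 25.6% with it. DESeq2, DESeq2 with the block and limma-voom also called 0 of the 9 in every comparison. Of the genes with an adjusted p, DESeq2 called 0.658% to 1.53% over the 4 comparisons, DESeq2 with the block 3.03% to 12.7% and limma-voom 0.0267% to 0.0534%. At an unadjusted p under 0.05 each again counted HLA-F alone, with shRNA-143 and for the mean.

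Libraries of a hairpin were clear of control for 3 of the 9 genes, all with shRNA-143. HLA-F and TAP1 had all shRNA-143 libraries above all control libraries, which 7.09% of tested genes did, and HLA-C had them all below, which 8.11% did. None of the 9 had all 6 shRNA libraries clear of control, which 3.08% of tested genes had above it and 2.77% below. With shRNA-146 alone none of the 9 was clear of control on either side, against 7.25% of all tested genes above and 7.46% below. The median log2 difference of the 9 was -0.01 with shRNA-143 and 0.00 with shRNA-146, beside 0.02 and 0.05 over all tested genes. Between shRNA-146 and shRNA-143 the log2 differences of the 9 ran from -0.19 for HLA-F to 0.17 for NLRC5, each with an interval that held 0. The comparisons with control share the control libraries.

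**Figure D3:**
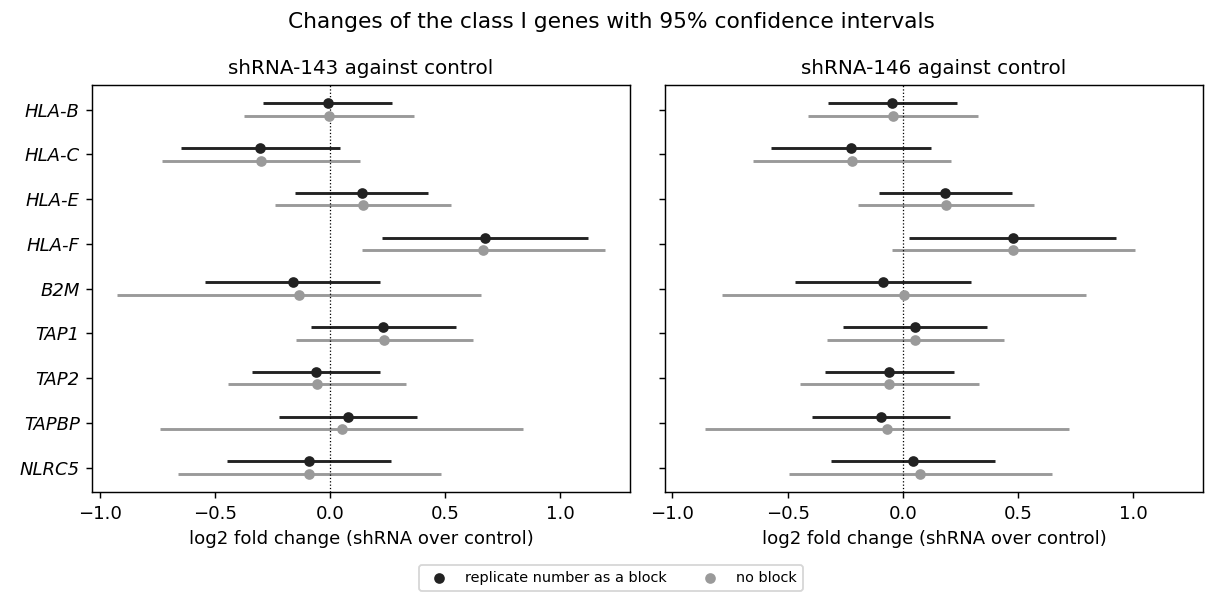
Log2 fold change over control (horizontal axis) of the 9 genes with shRNA-143 (left) and shRNA-146 (right), each with its 95% interval, black with the replicate number as a block and grey without. The interval of HLA-F lies above 0 with shRNA-143 in both fits and with shRNA-146 only with the block, those of the other 8 genes hold 0, and the block shortens the intervals of B2M and TAPBP most.

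The replicate number accounted for more of the spread of several of these genes than the hairpin did. Of the sum of squares of log2 CPM over the 9 libraries, the number held 91.5% for TAPBP, 80.0% for B2M, 75.6% for TAP2 and 71.6% for NLRC5, against a median of 50.8% over all tested genes. The group held 73.9% for HLA-F, 41.8% for TAP1 and 38.9% for HLA-C, against a median of 19.7%, and 2.56% to 6.32% for B2M, TAPBP, NLRC5, HLA-B and TAP2. For TAP1 and HLA-C the remainder, held by neither group nor number, was larger than the group's share, at 50.8% and 47.8%. For HLA-F it was 11.6%.

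B2M and the pair TAPBP and NLRC5 moved apart over the replicate numbers. B2M averaged 2883 CPM in the libraries numbered 1 and 1733 CPM in the others, and 14.3% of tested genes likewise had all libraries numbered 1 above all others. TAPBP averaged 158 CPM in the libraries numbered 1 and 280 CPM in the others, and NLRC5 14.3 and 19.9 CPM, and 20.3% of tested genes had all libraries numbered 1 below all others. Over the 9 libraries, Pearson's r was -0.88 between B2M and TAPBP, -0.90 between B2M and NLRC5 and 0.84 between TAPBP and NLRC5, as a description of libraries that share a number and a group. The level of HLA-B per length was 47.1%, 72.5% and 68.3% of that of B2M with shRNA-143 and 35.2%, 71.8% and 74.9% with shRNA-146, against 45.9%, 62.9% and 59.8% in control, and it was lowest at replicate 1 in each group. What the numbers share is not given in the labels, and its part in these values was not tested.

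**Figure D4:**
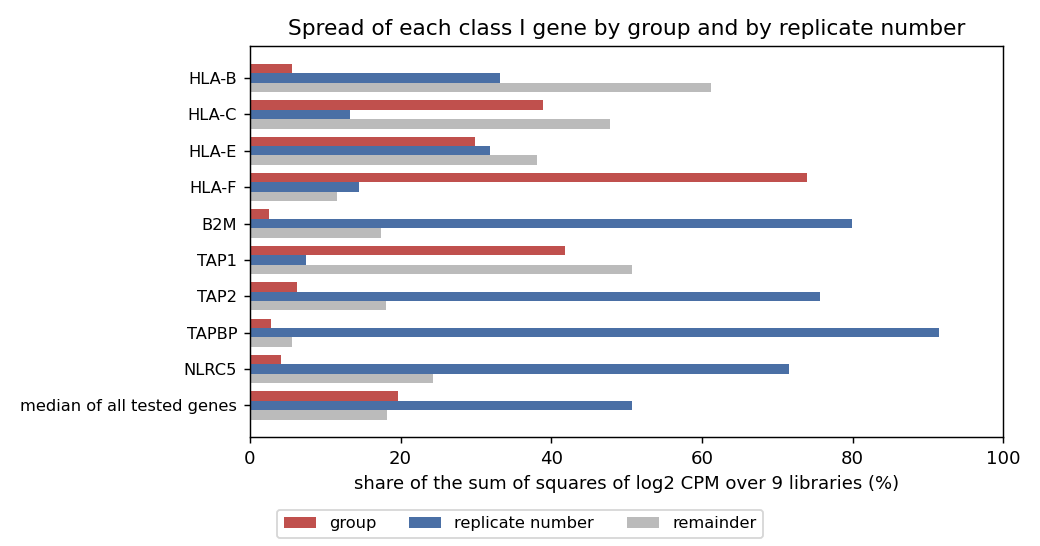
Share of the sum of squares of log2 CPM over 9 libraries (horizontal axis, %) held by the group, the replicate number and the remainder, for each of the 9 genes and as the median of each share over all tested genes. The bar of the replicate number is the longest for TAPBP, B2M, TAP2 and NLRC5, and that of the group for HLA-F, at 73.9%.

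Genes outside the 9 whose log2 CPM ran most like a member over the 9 libraries were sought among 8060 genes with a mean of at least 10 CPM. For B2M they were VTA1, GNAI3 and EIF4E (Pearson's r of 0.996, 0.995 and 0.991), an endosomal sorting factor, a G protein subunit and the cap-binding factor of translation. For NLRC5 they were AMPD2, MFSD12 and C6orf47 (0.973, 0.963 and 0.963). For TAP1 they were AQP3, TMEM109 and RCE1 (0.922, 0.921 and 0.921), and for HLA-B NFKBIA, the inhibitor of NF-kB, with C2orf68 and NDUFA10 (0.868, 0.859 and 0.858). None of the 12 belongs to the class I pathway lists below. These values describe likeness over libraries that share a replicate number, and carry no test.

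The genes around the class I display were described as 5 lists, chosen with earlier results of these data known. Without the block 0 of their 51 tested genes passed for the mean of both hairpins, where 0.0334% of all tested genes did. With the block 1 passed (1.96%), IRF1, where 5.74% of all tested genes did. For shRNA-146 with the block 2 of the 51 passed, IRF1 and JAK2, a share of 3.92% against 4.42% of all tested genes. For shRNA-143 with the block 0 of the 51 passed, where 3.17% of all tested genes did. The shares called in the lists were thus no higher than those over all tested genes in these comparisons. Gene length went with the fitted differences: with the block, the median log2 difference for the mean of both hairpins was -0.22 in the shortest of 5 length classes and 0.19 in the longest.

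Of the interferon signalling and class I transcription list, 22 of 23 genes were tested, and IRF1 and JAK2 were the genes that passed in some comparison, each higher. IRF1, an interferon-induced factor that binds the response element named above, had 25.8, 35.5 and 32.4 CPM with shRNA-143 and 27.2, 38.8 and 41.8 CPM with shRNA-146, against 21.6, 22.05 and 21.99 CPM in control. All 6 shRNA libraries lay above all 3 control libraries, which 3.08% of tested genes did. With the block IRF1 rose by 0.59 ± 0.13 for the mean of both hairpins (log2, adjusted p = 0.0308) and by 0.69 ± 0.15 with shRNA-146 (adjusted p = 0.0327; edgeR). With shRNA-143 and the block its difference of 0.50 ± 0.15 did not pass (adjusted p = 0.103), and without the block the adjusted p for the mean was 0.380.

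IRF1 was not a stable call. With the block and the mean of both hairpins, it was lost on leaving out replicate 2 or 3 of shRNA-143, replicate 2 of shRNA-146, or replicate 2 or 3 of control, at adjusted p-values of 0.116, 0.0851, 0.0654, 0.195 and 0.209, and with a correction for gene length, at 0.0629. With shRNA-146 it was lost without any 1 of these 5 libraries or shRNA-146 replicate 3 (adjusted p between 0.0616 and 0.170) and with the length correction (0.0621). JAK2, a kinase of the interferon gamma receptor, had 16.6, 22.3 and 24.7 CPM with shRNA-143 and 32.2, 28.1 and 28.0 CPM with shRNA-146, against 17.2, 20.5 and 16.4 CPM in control. It rose with shRNA-146 with the block, by 0.71 ± 0.17 (adjusted p = 0.0452). With shRNA-143 and the block its difference was 0.23 ± 0.17 (adjusted p = 0.483), and 0.053 when shRNA-143 replicate 3 was left out. Without the block JAK2 did not pass with either hairpin (adjusted p = 0.933 with shRNA-143 and 0.419 with shRNA-146). The shRNA-146 call with the block held when shRNA-143 replicate 1 or shRNA-146 replicate 1 was left out, but not without any of the other 7 libraries (adjusted p between 0.0508 and 0.215) or with the length correction (0.0643). The list's median difference for the mean of both hairpins, with the block, was 0.13 against 0.01 over all tested genes.

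None of the 12 genes of the assembly and trimming list passed in either direction, with a median of -0.14. PSMB8, a subunit of the immunoproteasome that cuts peptides for class I, had 242, 138 and 149 CPM with shRNA-143 and 196, 138 and 139 CPM with shRNA-146, against 273, 175 and 215 CPM in control. At every number both hairpins were below control, as in 13.1% of tested genes, and with the block the log2 difference for the mean of both hairpins was -0.41 ± 0.11 (adjusted p = 0.0501). PSMB8 lay near the threshold. With the block it passed for the mean without the filter on low counts (adjusted p = 0.0269), in DESeq2 (0.0223) and without shRNA-146 replicate 1 (0.0191). In these 3 settings 7.06%, 12.7% and 20.1% of all tested genes passed for the mean. The same 3 settings called PSMB8 with shRNA-146, where 5.99%, 10.8% and 11.4% of all tested genes passed. Leaving out 1 library, in either fit, gave -0.55 to -0.22 for the mean. PSMB9, another subunit of it, had 137, 65.1 and 75.5 CPM with shRNA-143 and 93.9, 54.4 and 60.0 CPM with shRNA-146, against 120, 65.5 and 93.8 CPM in control, and its difference was -0.23 ± 0.12 (adjusted p = 0.242 with the block).

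The remaining lists held no call for the mean of both hairpins either, with or without the block. All 3 tested genes of the histone methyltransferase complex PRC2, a known repressor of class I genes in other tumours, had a median of -0.03. Of the class I-like molecules and ligands of natural killer cells, 9 of 10 were tested, with a median of 0.25. In some alternative settings with the block, such as the length correction, MICB of this list passed. Of the list labelled class I receptors of myeloid cells, 5 of 8 were tested. It holds genes not established as such, among them LILRB4, LILRA2 and CD8A. The median of 0.54 was the value of LILRB4, beside LILRB1 at 0.67, LILRB2 at 0.57, CD8A at -0.18 and LILRA2 at -0.24. LILRB1, LILRB2 and CD8A had few counts, with group means from 0.560 CPM (CD8A, shRNA-143) to 2.80 CPM (LILRB2, shRNA-146).

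**Figure D5:**
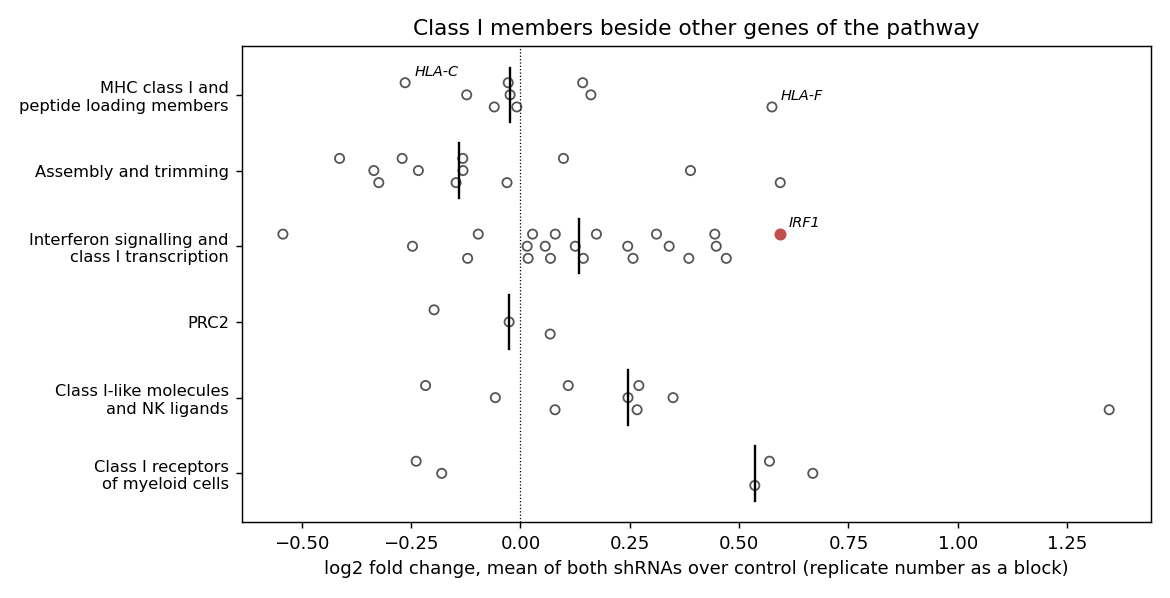
Log2 fold change for the mean of both hairpins over control with the replicate number as a block (horizontal axis), a circle for each tested gene of the 9 class I genes and of the 5 other lists (rows) and a bar at each row's median. Only IRF1 is filled, as the gene with an adjusted p under 0.05, and among the 9 class I genes HLA-F at 0.58 and HLA-C at -0.26 stand at the ends.

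In the authors' deposited tables, the log2 fold change of HLA-F was 0.68 with shRNA-143 (adjusted p = 0.373) and 0.49 with shRNA-146 (adjusted p = 0.858). That of HLA-C was -0.28 (adjusted p = 0.866) and -0.21 (adjusted p = 0.948) in the same order. NFATC2 passed in both, at -2.07 (adjusted p = 0.0206) with shRNA-143 and -1.84 (adjusted p = 0.0398) with shRNA-146.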

How the data were processed

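The authors deposited raw counts per gene for 9 libraries, 3 in each group by their titles, with no replicates pooled. They also deposited a comparison table per hairpin with counts, signal columns (counts divided by a size factor per library), FPKM values, log2 fold changes and p-values. The test behind the authors' p-values is not named in the file headers. Tools named in the submitters' processing notes are STAR 2.5, fastp, featureCounts and DESeq2, with the hg38 build. All 58735 gene identifiers are in GENCODE release 29, and 0 columns belonged to other samples. For strand and multi-mapping settings nothing is given in the sources used here.

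Low counts were removed with filterByExpr (at least 99.9% of each library's counts kept), TMM-scaled and tested in a fit of 3 group means over 9 libraries with edgeR 4.0.16's quasi-likelihood test (R 4.3.3, 6 residual degrees of freedom, 4 with the block). P-values were adjusted by Benjamini-Hochberg over 14975 genes per comparison and called under 0.05. The procedure was also run on simulated counts, with and without replicate effects drawn independently for each gene, and with no trend with gene length. Its outcome is not reported here and bears on neither fit of these libraries. Log2 CPM used a prior count of 2, and RPKM used the deposited gene length. DESeq2 1.42.0, voom of limma 3.58.1, other scalings, a length correction, no filter, and leaving out each library were alternatives.

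Replicate numbers come from the titles. On deviations from the group means, the 9 pairs of libraries that share a number correlated at 0.252 to 0.758. The 18 other pairs between groups ran from -0.678 to 0.535, so the ranges overlapped. Libraries numbered 1 stood apart, at 0.664 to 0.758 with each other and negative values with the rest. Numbers 2 and 3 were not clearly told apart: shRNA-146 replicate 3 correlated at 0.252 with control replicate 3 and at 0.520 with control replicate 2. The pairing was thus read from the data and not from the labels, and for numbers 2 and 3 it is an assumption. Nothing names separate cultures, so the p-values cover only how far these libraries spread, possibly for technical reasons.

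The 9 genes and the lists were chosen with earlier results of these data known. Named were the 9 genes, NFATC2, IRF1, PSMB8 and PSMB9, list genes that passed in any comparison in either fit, and the 3 most similar genes of HLA-B, B2M, TAP1 and NLRC5. Some genes that the naming rule or the marker lists cover are not reported here.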

Additional observations from a re-analysis of the deposited data

How the results depend on the processing

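The count of class I genes past the threshold stayed at 0 in every comparison under the replicate block, the other scalings, the length correction, no filter, DESeq2 and voom. It was also 0 in the fit of the compared groups alone, which was not run for the mean of both hairpins. Leaving out 1 library gave 0 to 1 with shRNA-143, 0 to 1 with shRNA-146 and 0 to 2 for the mean of both hairpins, with values above 0 only with the block and without shRNA-146 replicate 1. The cause was not tested. Among the genes of the 5 lists, 0 passed for the mean without the block, and with it 1, IRF1. With the block and library size scaling 3 of 51 passed (5.88%, against 5.73% of all tested genes). With the block and the length correction 1 of 51 passed, MICB and not IRF1 (1.96%, against 4.25%). With the block and no filter 7 of 55 passed (12.7%, against 7.06%), and with the block in DESeq2 6 of 50 (12%, against 12.7%). Leaving out 1 library gave 0 to 12, the highest with the block and without shRNA-146 replicate 1 (22.6%, against 20.1%). Over all tested genes the block moved the calls for the mean to 859, against 5 without it. The replicate block changed the sign of B2M with shRNA-146 (-0.085) and of TAP2 between the hairpins (0.0033), and changed no call of the 9 genes.

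HLA-F and HLA-C kept their sign under every alternative run against control, but not their size: with shRNA-146, HLA-C ran from -0.43 to -0.068 around -0.22, and HLA-F from 0.34 to 0.62 around 0.48. Of 1071 values of the 9 genes under the alternatives, 934 kept direction and side of the threshold, 4 passed newly and 133 changed sign, none of the last with a size over 0.17 in the fit as reported. All log2 values below are of genes that did not pass. Scaling by library size moved the median of all genes to 0.12 with shRNA-143, 0.19 with shRNA-146 and 0.15 for the mean, and the signs below that turn under it lie near or under that shift.

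With library size scaling, the values that changed sign were HLA-B 0.094, TAP2 0.052, NLRC5 0.017 and PSMB9 0.071 with shRNA-143, HLA-B 0.094, TAP2 0.085 and TAPBP 0.090 with shRNA-146, HLA-B 0.094, B2M 0.022, TAP2 0.068, TAPBP 0.12 and NLRC5 0.13 for the mean, and TAP2 0.033 between the hairpins. With the block and this scaling they were HLA-B 0.088, TAP2 0.032, NLRC5 0.0020 and PSMB9 0.057 with shRNA-143, HLA-B 0.089, TAP2 0.073 and TAPBP 0.043 with shRNA-146, HLA-B 0.088, TAP2 0.053, TAPBP 0.11 and NLRC5 0.092 for the mean, and HLA-B 0.00018 and TAP2 0.041 between the hairpins. With the block and the length correction they were HLA-B 0.089 and PSMB9 0.052 with shRNA-143, HLA-B 0.060, B2M -0.16 and NLRC5 -0.19 with shRNA-146, and HLA-B 0.074 for the mean. Median-of-ratios scaling gave HLA-B 0.0087 and PSMB9 0.0036 with shRNA-143, and TAPBP 0.0038 and NLRC5 0.0043 for the mean. DESeq2 gave HLA-B 0.0087 and PSMB9 0.0036 with shRNA-143, and TAPBP 0.0037 and NLRC5 0.0045 for the mean. DESeq2 with the block gave HLA-B 0.0059 with shRNA-143, B2M -0.077 with shRNA-146, and TAPBP 0.0015 for the mean. Upper quartile scaling gave B2M -0.035 with shRNA-146. Without a filter the value was B2M -0.011 with shRNA-146, and B2M -0.095 with the block. Voom gave B2M -0.087 with shRNA-146, and TAP2 0.0034 between the hairpins. The fit of the compared groups alone gave TAP2 0.0055 between the hairpins.

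Leaving out 1 library, in either fit, gave these ranges where a sign changed. With shRNA-143 they were -0.093 to 0.082 for HLA-B, -0.38 to 0.021 for B2M, -0.16 to 0.034 for TAP2, -0.18 to 0.25 for TAPBP, -0.19 to 0.028 for NLRC5 and -0.41 to 0.22 for PSMB9. With shRNA-146 they were -0.12 to 0.044 for HLA-B, -0.48 to 0.24 for B2M, -0.036 to 0.14 for TAP1, -0.30 to 0.21 for TAPBP and -0.13 to 0.29 for NLRC5. For the mean they were -0.11 to 0.063 for HLA-B, -0.31 to 0.089 for B2M, -0.24 to 0.19 for TAPBP, -0.11 to 0.10 for NLRC5 and -0.42 to 0.0084 for PSMB9. Between the hairpins they were -0.090 to 0.033 for HLA-B, -0.12 to 0.23 for HLA-C, -0.055 to 0.15 for HLA-E, -0.34 to 0.38 for B2M, -0.094 to 0.10 for TAP2, -0.34 to 0.16 for TAPBP and -0.039 to 0.38 for NLRC5. The shares of promoters with a motif were lower in the 250 bases before the start alone, 3.07% for the interferon-stimulated response element, and the B2M match to GGGNNTTCC reaches past them. Few counts limit the precision of HLA-F.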
